A study of Saccharomyces cerevisiae with 16 samples.

Results

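Among 16 expression arrays of the budding yeast Saccharomyces cerevisiae, the array labelled WT replicate 1 and the array labelled MA5 replicate 1 stood apart from the other 14 together. These 2 of 16 arrays were grouped by their titles because they had low URA3, low levels of stress genes and profiles like each other. Those measured values chose the pair, so everything that sets the 2 arrays against the other 14 is a description and carries no test. The arrays are described here as labelled, and no difference is assigned to a CCT substitution, since URA3 contradicts the strain labels. All levels are log2 values of 1 probe set per gene, for 5449 genes, and a difference of 1 on this scale is 2-fold.

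Fast-growing yeast cells spend much of their transcription on ribosome production, while cells short of nutrients or under stress turn on a broad programme driven by the transcription factors Msn2 and Msn4, with heat shock proteins, storage carbohydrates and antioxidant enzymes. A separate group of cell wall mannoproteins, the DAN, TIR and PAU genes, is known for its use when oxygen is scarce. Haploid cells of mating type a sense alpha-factor through a receptor, a G protein and a kinase cascade that ends at the transcription factor Ste12, and they keep a basal level of this pathway's targets without a partner.

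The study measured a wild-type strain and 7 mutant strains on 2 arrays each. Each mutant carries an aspartate-to-glutamate change in 1 subunit of CCT, the chaperonin ring that folds actin and tubulin. Cultures grew at 30 °C to an OD600 of 0.5. Nothing in the labels says that the 2 arrays of a strain came from separate cultures. All 8 genotypes, the wild type included, list the vacuolar protease alleles prb1-1122, pep4-3 and prc467, the marker alleles ura3-52, leu2, leu2-3 and trp1, the allele gal2, and a CBP tag on CCT6. WT has CCT6::CBP::KanMX4. MA5 has CCT6::CBP::URA3 with CCT5::D117E::KANMX4. MA1, MA2, MA3, MA7 and MA8 have the same CCT6::CBP::URA3 with CCT1::D96E, CCT2::D90E, CCT3::D91E, CCT7::D96E and CCT8::D98E, each marked with KANMX4. MA6 has CCT6::CBP::D89E::KANMX4 and lists no URA3 cassette.

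URA3, the uracil synthesis enzyme used here as a marker, read 8.07 on the first WT array and 8.12 on the first MA5 array. Only 2 other arrays were this low, MA2 replicate 2 at 7.23 and MA8 replicate 1 at 7.30, and the remaining 12 lay between 11.70 and 12.05. The low level on an MA5 array goes against a genotype that lists URA3, and the level of 11.95 on WT replicate 2 goes against one that does not, as do 11.70 and 11.90 on the MA6 arrays. URA3 therefore did not separate the 2 arrays from all others, and HSP12 did. HSP12, which encodes a small heat shock protein, was 10.82 and 10.56 on the 2 arrays, and the next array was at 12.33. The median gene was at 10.48 and 10.49 on the 2 arrays and between 10.47 and 10.50 on the others, and the median of 1746 fission yeast probe sets was 4.42 and 4.43 against 4.33 to 4.43.

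As their choice required, WT replicate 1 and MA5 replicate 1 were close to each other. The root mean square difference between them over 5449 genes was 0.121, the third smallest of the 120 pairs of arrays. Their nearest other array was MA3 replicate 2, at distances of 0.379 and 0.382.

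Both arrays lay below all of the other 14 for 951 genes (17.5% of 5449) and above all of them for 1282 (23.5%), 2233 together (41%). The fold differences were mostly small: 119 of the lower genes (2.18%) and 28 of the higher ones (0.514%) also differed by at least 2-fold in the mean. The gap to the nearest other array exceeded the whole range of the other 14 for 73 lower genes (1.34%) and 116 higher genes (2.13%). Among differences of 2-fold or more, most were downward, while wide gaps were more often upward. Over the 119 lower genes the median was -1.40 on both arrays, and the other 14 had medians from -0.28 on MA3 replicate 2 to 0.51 on MA6 replicate 1. The 28 higher genes had medians of 1.36 and 1.43, against -0.38 on MA6 replicate 1 to 0.34 on MA2 replicate 2. Of the other 14 arrays, MA3 replicate 1 and MA7 replicate 2 stood apart in the genes of chromosome X, with medians of 0.63 and 0.68 against -0.12 to -0.08 on the other 12. Without these 2 arrays, an alternative chosen after seeing the data, the pair lay below all of the remaining 12 for 1240 genes (22.8%) and above for 1466 (26.9%). List counts that differ by over 1.5 times without them are given beside the list, apart from counts above that went from 0 to 1. Those were for chaperones, mitochondrial ribosomal proteins and the tricarboxylic acid cycle. The shares against all 14 are the background for every list count that follows, and they were fixed by the same contrast that chose the arrays.

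**Figure D1:**
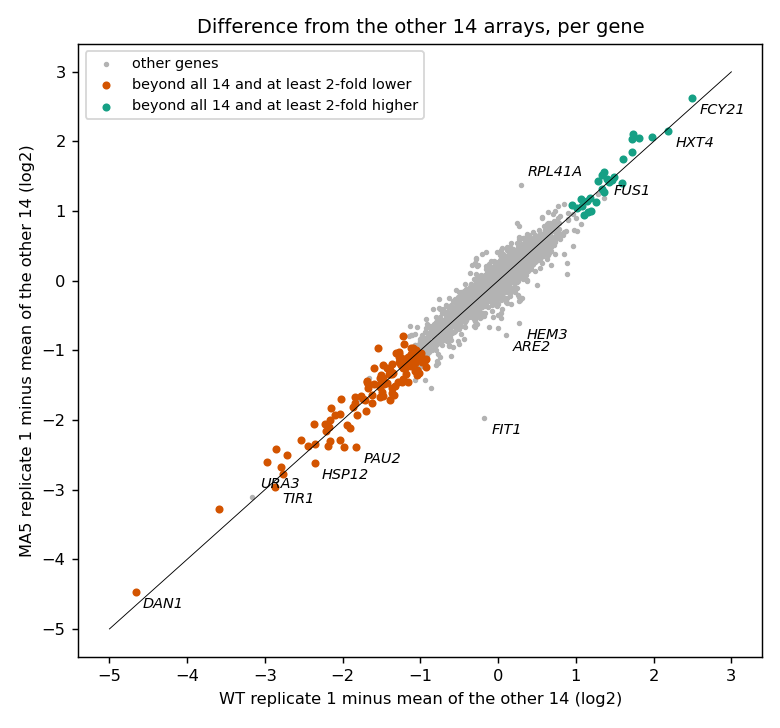
Difference of each of 5449 genes from the mean of the other 14 arrays (log2), on WT replicate 1 (horizontal axis) and MA5 replicate 1 (vertical axis), with the line of equality. Orange points are the 119 genes and green points the 28 genes on which both arrays lay beyond all others by at least 2-fold; FIT1 and RPL41A lie off the line.

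The general stress response genes were low on both arrays. Of 40 Msn2/Msn4 targets measured, 28 were below all other arrays and 0 above, and 13 were lower by at least 2-fold. The list median was -0.71 and -0.62, while the other arrays ran from -0.26 on MA1 replicate 2 to 0.62 on MA6 replicate 1. For all genes the medians were 0.01 and 0.02. As stress genes helped to choose the arrays, this is what the choice selected. In RNA from whole cultures, fewer cells expressing a gene and less RNA per cell cannot be told apart.

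HSP12 was 5.62-fold lower in the mean, and the other 14 arrays ran from 12.33 through a median of 13.08 to 14.40. XBP1, a transcriptional repressor induced by stress, was 6.51 and 6.83 against 8.61, 8.81 and 9.40 for the lowest, median and highest other array, a 4.64-fold difference. Its gap to the others was wider than their range. HSP30, a plasma membrane heat shock protein, was 7.75 and 7.81 against 8.76, 9.71 and 11.64. The polyubiquitin gene UBI4, named after its values were seen, was 11.03 and 11.10 against 12.19, 12.35 and 12.83. Not every stress gene stood clear: 12 of the 40 overlapped the other arrays. The cytosolic catalase CTT1, also named after its values were seen, was 8.46 and 8.45, just under the next array at 8.52.

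Storage carbohydrate genes followed the same order. Of 20 trehalose and glycogen genes, 12 were below all other arrays and 2 above, with medians of -0.52 and -0.47. GPH1, glycogen phosphorylase, was 7.99 and 8.07 against 8.66, 9.29 and 10.96. TPS2, the trehalose phosphate phosphatase, was 10.67 and 10.90 against 11.36, 11.54 and 11.79, a difference of 1.70-fold. The neutral trehalase NTH1 was 11.73 and 11.77 against 12.30, 12.46 and 12.99, so a gene of breakdown and one of synthesis were low together.

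Chaperones differed less than stress genes. Of 31 chaperone and heat shock genes, 8 were below all other arrays and 0 above, and the medians of -0.10 and -0.07 lay inside the range of the others. The mitochondrial disaggregase HSP78 was 10.79 and 11.07 against 11.77, 12.07 and 12.59. HSP42, a small heat shock protein of the cytosol, was 10.92 and 11.36 against 11.70, 12.19 and 12.77. The cytosolic disaggregase HSP104 was 11.97 and 12.08 against 12.15, 12.63 and 12.88, only just clear of its neighbour.

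Vacuolar and autophagy genes were low as well. Of 9 vacuolar protease and inhibitor genes measured, 7 were below all other arrays, with medians of -0.45 and -0.36. The 3 protease genes whose alleles all strains carry were among them. PRB1, proteinase B, was 10.45 and 10.64 against 11.14, 11.28 and 11.64. PEP4, proteinase A, was 11.06 and 11.14 against 11.24, 11.51 and 11.63. PAI3, the inhibitor of proteinase A, had the largest difference of the list, at 6.39 and 6.61 against 7.22, 7.66 and 8.21. Of 21 autophagy genes, 13 were below all others and 1 above, with medians of -0.46 and -0.33.

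ATG39, a receptor for autophagy of the nuclear envelope and endoplasmic reticulum, was 6.06 and 6.05 against 7.34, 7.67 and 8.51, a 3.28-fold difference. ATG40, another endoplasmic reticulum receptor, was 8.77 and 9.04 against 9.76, 10.32 and 10.45. Both had gaps wider than the range of the others. ATG8, the ubiquitin-like protein of the autophagosome, was 9.16 and 9.21 against 9.88, 10.26 and 11.39.

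Ribosome biogenesis had the most genes on the high side of the 35 lists. Of 122 ribosome biogenesis genes measured, 111 were above all other arrays and 0 below, where 23.5% of all genes were above. None reached 2-fold: the differences ran from -0.06 to 0.70, and the medians were 0.39 and 0.38 against -0.19 on MA6 replicate 1 to 0.07 on MA8 replicate 1. The gap exceeded the range of the others for 17 of them. DRS1, an RNA helicase of the large subunit pathway, was 12.10 and 12.07 against 11.18, 11.41 and 11.54. ENP1, a small subunit assembly factor, was 11.36 and 11.37 against 10.58, 10.75 and 10.83. The largest difference was that of DHR2, a nucleolar helicase, at 10.60 and 10.41 against 9.33, 9.85 and 10.04, or 1.62-fold.

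The genes that make and modify the RNA of the translation apparatus showed smaller shares. Of 27 RNA polymerase I and III genes, 17 were above all other arrays, with medians of 0.31 and 0.26. The polymerase III subunit gene RPC31 was 10.72 and 10.78 against 9.99, 10.16 and 10.37. Of 28 tRNA modification and nucleotide supply genes, 18 were above and 2 below, with medians of 0.33 and 0.34 (4 below without MA3 replicate 1 and MA7 replicate 2). DUS3, a tRNA dihydrouridine synthase, was 10.90 and 10.80 against 9.85, 10.11 and 10.38. The stress list was low and these lists were high on the same 2 arrays, and on MA6 replicate 1 the reverse held, with the highest stress median and the lowest ribosome biogenesis median of the 14.

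**Figure D2:**
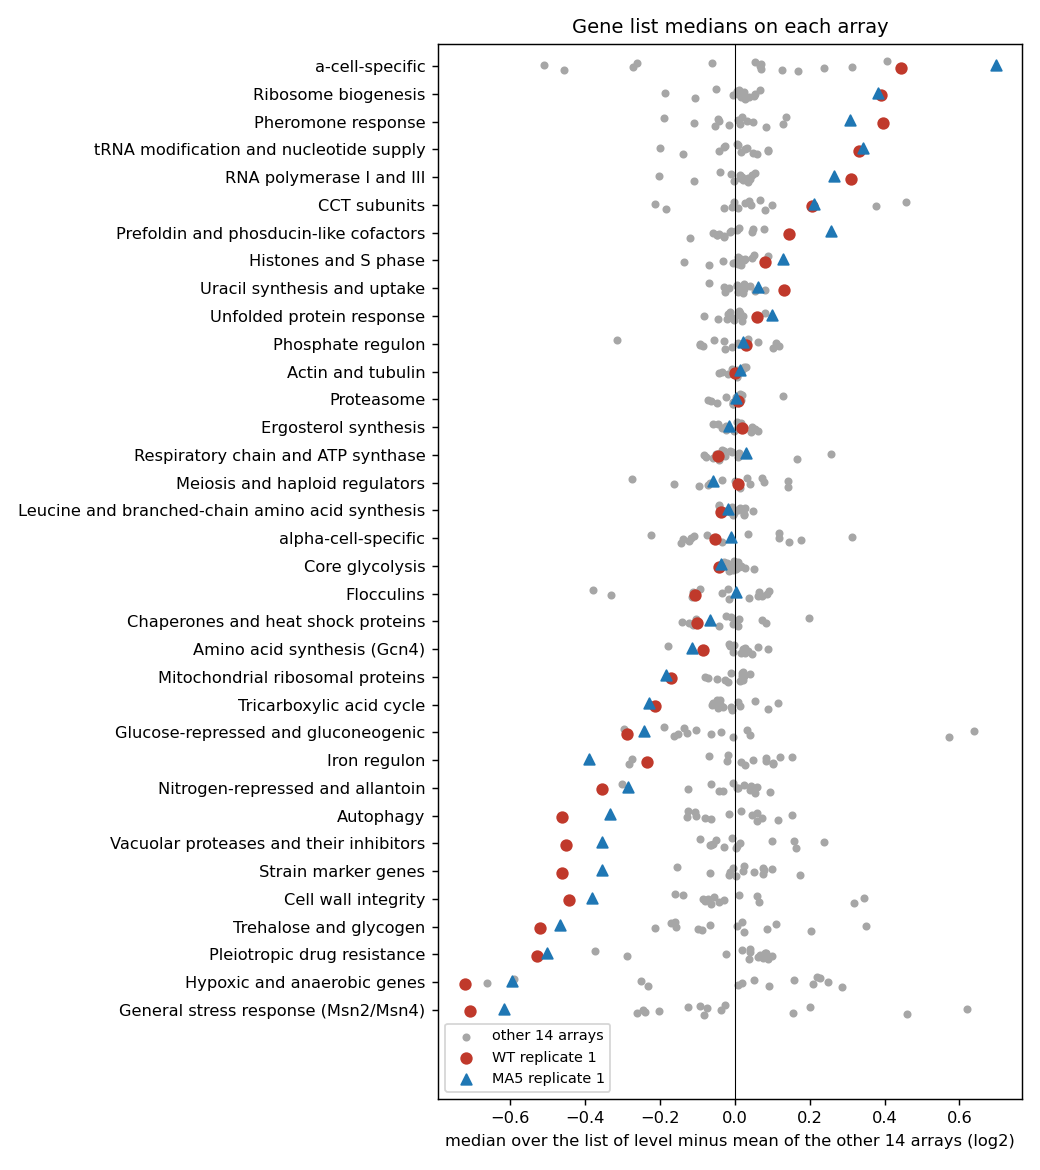
Median over each of 35 gene lists of the level minus the mean of the other 14 arrays (log2), 1 point per array, with WT replicate 1 as red circles, MA5 replicate 1 as blue triangles and the other 14 arrays in grey. The 2 arrays lie left of all others for the general stress response list and right of all others for ribosome biogenesis.

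Mitochondrial genes were low in part. Of 70 mitochondrial ribosomal protein genes, 31 were below all other arrays and 0 above, by small amounts, with medians of -0.17 and -0.18. Of 23 tricarboxylic acid cycle genes, 13 were below and 0 above, with medians of -0.21 and -0.23. IDH1, a subunit of the mitochondrial isocitrate dehydrogenase, was 11.94 and 12.11 against 13.22, 13.34 and 13.67, a 2.53-fold difference. Its partner IDH2 was 12.92 and 12.98 against 13.81, 13.92 and 14.11.

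Aconitase, encoded by ACO1, was 13.22 and 13.18 against 14.03, 14.12 and 14.27. CIT2, the peroxisomal citrate synthase, was 12.39 and 12.49 against 13.19, 13.38 and 13.73. All 4 of these gaps were wider than the range of the others. The respiratory chain list was not shifted in this way: 6 of 39 genes were below and 3 above, with medians of -0.04 and 0.03. NDE2, an external NADH dehydrogenase, was its exception at 6.55 and 6.25 against 7.42, 7.83 and 8.75.

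Glucose-related genes were mixed. Of 31 glucose-repressed and gluconeogenic genes, 6 were below and 4 above. HXT5, a hexose transporter of slow growth, was 6.32 and 6.45 against 7.06, 8.09 and 8.49. HXT4, a transporter used at low glucose, went the other way, at 10.36 and 10.33 against 7.44, 8.06 and 9.49, and was 4.51-fold higher. The arrays nearest to it were MA6 replicate 1 at 9.49 and MA1 replicate 1 at 9.34, which had the highest HSP12 of the series. Of 18 core glycolysis genes, 6 were below and 0 above, with medians of -0.04 on both arrays. TDH1, a glyceraldehyde phosphate dehydrogenase, was 11.37 and 11.40 against 12.29, 12.57 and 13.07.

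The hypoxic gene DAN1 had the largest difference of all 5449 genes. Of 25 measured, 10 were below all other arrays and 0 above, and 7 were at least 2-fold lower. DAN1, the anaerobic mannoprotein gene that was one of the markers, was 6.14 and 6.33 against 8.30, 11.40 and 11.96, a 23.7-fold difference. TIR1, a related mannoprotein, was 9.31 and 9.21 against 10.29, 12.78 and 13.27. ANB1, the hypoxic form of the translation factor eIF5A, was 8.51 and 8.62 against 8.97, 11.81 and 12.33.

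These genes were not low on the 2 arrays alone. DAN1 was also low on MA1 replicate 1 at 8.30, MA6 replicate 1 at 8.51, MA3 replicate 1 at 9.27 and MA7 replicate 2 at 9.95, while the other 10 arrays lay between 10.98 and 11.96. The list medians were -0.72 and -0.59, and MA3 replicate 1, at -0.66, fell between them. PAU2, a seripauperin, was 7.52 and 6.95 against 8.20, 9.44 and 10.35. Genes of the list named after their values were seen did not all follow: TIR2 was 9.64 and 9.52 against 8.93 to 9.99, and the heme synthesis gene HEM13 was 10.72 and 10.73 against 10.55 to 11.55. Ergosterol synthesis, which also needs oxygen, had 1 of 26 genes below (4 without MA3 replicate 1 and MA7 replicate 2) and 3 above.

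Drug resistance and cell wall genes were low. Of 16 pleiotropic drug resistance genes, 10 were below all other arrays and 0 above, with medians of -0.53 and -0.50. RSB1, a transporter-like protein of sphingoid bases, was 8.17 and 8.43 against 9.50, 10.86 and 11.22. The ABC transporter gene PDR15 was 10.48 and 10.80 against 11.23, 12.68 and 12.95, where MA3 replicate 1 at 11.23 and MA7 replicate 2 at 11.35 were the next lowest. PDR3, a transcription factor of the network, was 9.98 and 9.95 against 10.48, 11.34 and 11.48.

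Of 26 cell wall integrity genes, 17 were below all other arrays and 1 above, with medians of -0.44 and -0.38. PIR3, a cell wall glycoprotein counted in the stress list too, was 8.15 and 8.17 against 9.09, 10.01 and 12.95. The glucan synthase subunit gene GSC2 was 9.86 and 9.89 against a median of 11.13 and a highest of 12.72, and its 2 highest arrays were MA6 replicate 1 and MA1 replicate 1. FKS3, a relative of the glucan synthases, was 6.51 and 6.67 against 6.96, 8.05 and 8.71.

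Nutrient lists were unlike each other. Of 17 phosphate genes, 3 were below and 1 above, or 6 and 3 without MA3 replicate 1 and MA7 replicate 2, with medians of 0.03 and 0.02. PHM8, a phosphatase gene, was 7.07 and 7.24 against 8.33, 9.16 and 9.95. Of 26 iron genes, 9 were below and 2 above (4 above without those 2 arrays). The iron medians were -0.23 and -0.39, and MA1 replicate 1 at -0.28 and MA6 replicate 1 at -0.27 lay between them. The ferric reductase gene FRE4 was higher, at 10.27 and 10.10 against 7.52, 8.92 and 9.34. Of 24 nitrogen-repressed genes, 10 were below and 0 above (2 above without MA3 replicate 1 and MA7 replicate 2), with no gene at 2-fold. The nitrogen medians were -0.36 and -0.28, and MA7 replicate 2, at -0.30, fell between them. DUR3, a urea transporter, was 9.28 and 9.26 against 9.79, 10.24 and 10.44. Of 42 Gcn4-regulated amino acid genes, 10 were below and 5 above (20 below without MA3 replicate 1 and MA7 replicate 2). Their medians were -0.09 and -0.11, and MA7 replicate 2 was lower at -0.18. Among them SER3 of serine synthesis was 9.67 and 9.76 against 10.30, 10.82 and 11.33, and MET14 of sulfate assimilation was 10.61 and 10.56 against 9.63, 9.77 and 10.17.

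Genes outside the lists made up 76 of the 119 lower genes (63.9%) and 17 of the 28 higher ones (60.7%), where 84.1% of all genes are outside the lists. PAU24, a seripauperin, was 6.70 and 7.01 against 8.01, 10.47 and 11.53, or 10.8-fold lower. Like DAN1, PAU24 was also low on MA1 replicate 1 at 8.01 and MA6 replicate 1 at 8.11, with MA3 replicate 1 next at 9.52. SNO1, of vitamin B6 synthesis, was 10.13 and 9.94 against 11.99, 12.29 and 12.69. Its partner SNZ1, named after its values were seen, was 12.59 and 12.71 against a median of 14.11 and a highest of 14.26. Both gaps exceeded the range of the others.

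AMS1, the vacuolar alpha-mannosidase, was 8.03 and 8.10 against 9.80, 10.52 and 10.91. GPG1, a partner of the glucose-sensing G protein, was 7.24 on both arrays against 9.18, 9.99 and 10.91. ECM13, of unknown function, was 6.44 and 6.82 against 8.64, 9.12 and 10.70. CIS1, also among the 15 largest differences below, was 8.42 and 8.64 against 9.76, 11.33 and 11.67. LSO1 was 4.998 and 5.43 against 5.70, 8.09 and 8.88, and SET4 was 4.93 and 4.80 against 5.79, 7.38 and 8.05. Both were also low on MA1 replicate 1 and MA6 replicate 1, LSO1 at 5.71 and 5.70 and SET4 at 5.79 and 6.24. The next arrays were MA3 replicate 2 at 7.17 for LSO1 and MA3 replicate 1 at 6.29 for SET4. On the pair LSO1 and SET4 lay near the fission yeast median, so no fold is given.

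On the high side, FCY21, of the purine-cytosine permease family, led with 9.09 and 9.22 against 6.08, 6.57 and 7.13, a 5.91-fold difference and a gap wider than the range of the others. ARO10 and ARO9, enzymes that break down aromatic amino acids, were high together. ARO10 was 9.15 and 9.23 against 6.58, 7.11 and 8.08, and ARO9 was 10.80 and 10.79 against 8.82, 9.23 and 9.81. NRT1, a nicotinamide riboside transporter, was 8.73 and 8.93 against 6.59, 7.38 and 8.55. CRR1, a glycoside hydrolase-like gene of the spore wall, was 8.63 and 8.76 against 6.25, 6.91 and 7.71. The uncharacterised YMR230W-A was 3.67-fold higher. YOR072W-B was 2.74-fold higher by its brighter probe set, at 1.46, but its second probe set differed by 0.08, so its 2 probe sets disagreed.

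**Figure D3:**
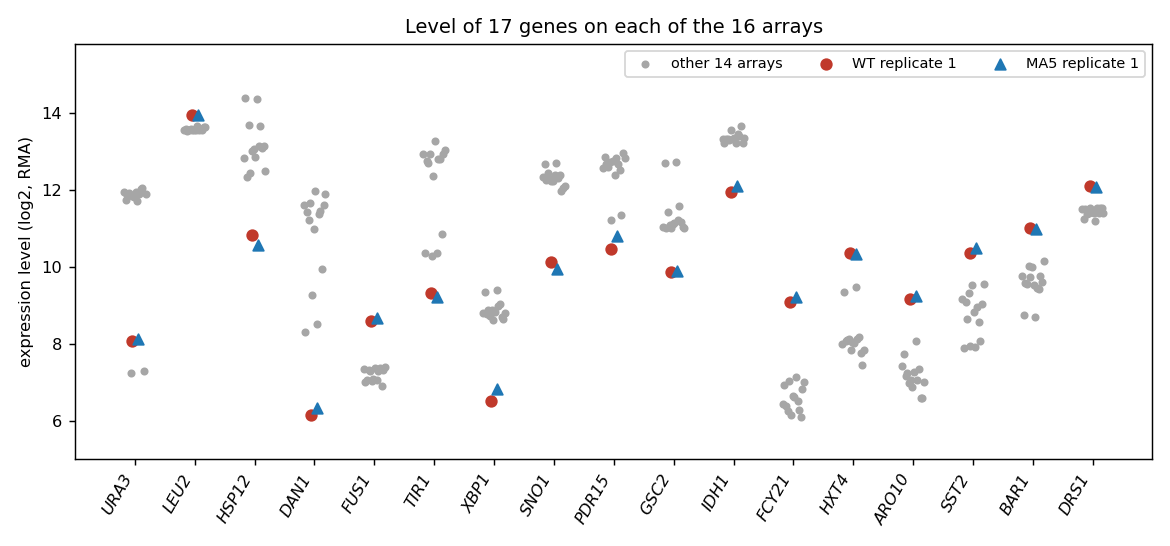
Level (log2) of 17 genes on each of the 16 arrays, with WT replicate 1 as red circles, MA5 replicate 1 as blue triangles and the other 14 in grey. URA3 is low on 2 further arrays, while HSP12, XBP1 and SNO1 lie below all others and FCY21, HXT4 and BAR1 above; DAN1 and TIR1 split the other arrays too.

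Mating genes were high. Of 27 pheromone response genes, 16 were above all other arrays and 3 below, and 7 were higher and 1 lower by at least 2-fold. The medians were 0.40 and 0.31, against -0.19 on MA7 replicate 2 to 0.14 on MA8 replicate 2. FUS1, a cell fusion protein and one of the markers, was 8.59 and 8.66 against 6.89, 7.29 and 7.39, a 2.70-fold difference. AGA1, the anchor of the a-agglutinin, was 10.47 and 10.66 against 8.71, 9.10 and 9.47. SST2, which turns off the G protein, was 10.35 and 10.49 against 7.88, 8.89 and 9.56.

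Further genes of the pathway, named after their values were seen, were not all high. The transcription factor gene STE12 was 10.83 and 10.90 against 9.75, 10.15 and 10.35. Its partner TEC1 was 10.87 and 10.86 against 9.43, 9.69 and 9.94. The G protein subunit gene GPA1 was 11.40 and 11.50 against 10.75 to 11.16, and the kinase gene FUS3 was 9.95 and 10.03 against 9.57, 9.73 and 9.85. Kinase genes of the cascade outside the list did not share this: STE20 was 11.77 and 11.69 against 11.46 to 11.77, and STE7 was 9.45 and 9.48 against 9.35 to 9.57. STE11 was below all other arrays, at 9.62 and 9.50 against 9.71 to 9.97. PRM5, a pheromone-regulated membrane protein gene that also answers cell wall signalling, was lower too, at 10.31 and 10.14 against 11.65, 11.94 and 12.54.

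**Figure D4:**
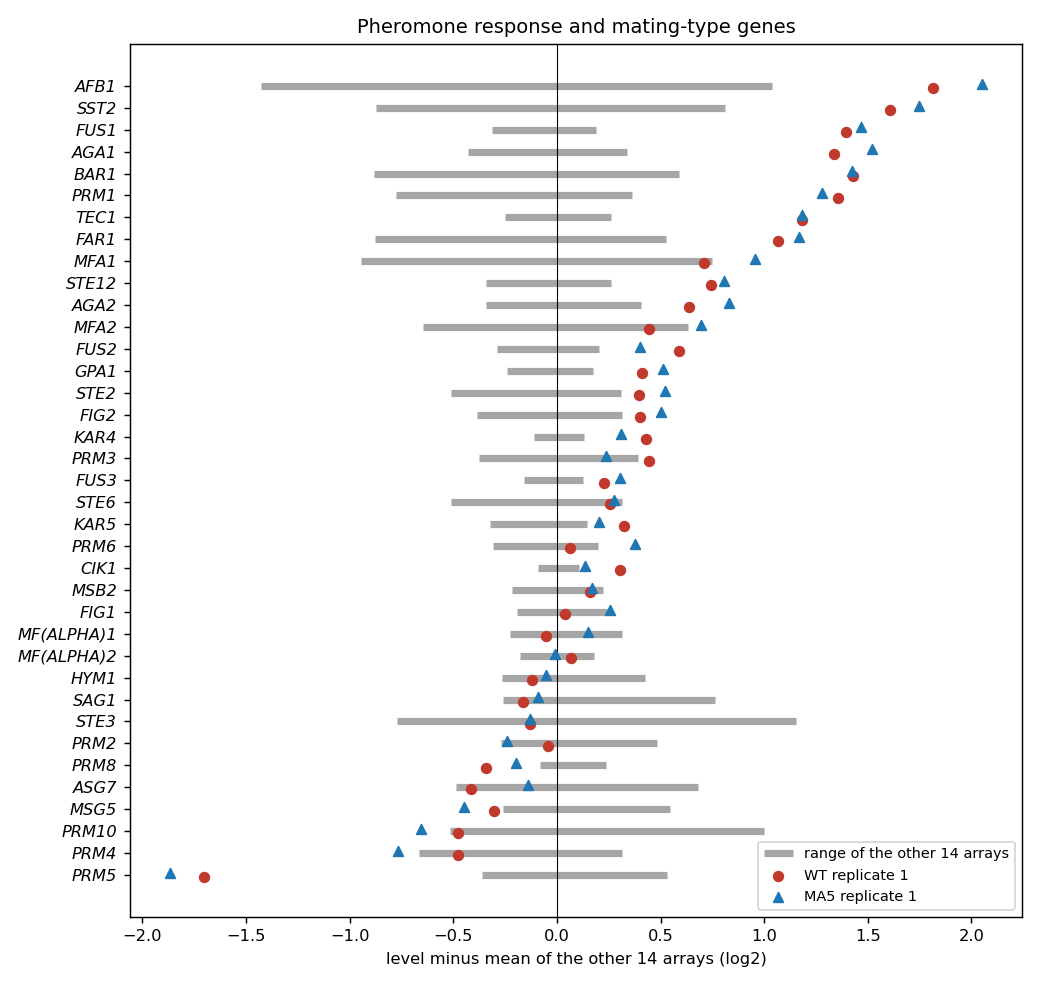
Level minus the mean of the other 14 arrays (log2) for 37 pheromone response and mating-type genes, with the range of the other 14 as grey bars, WT replicate 1 as red circles and MA5 replicate 1 as blue triangles. FUS1, AGA1 and TEC1 lie far beyond narrow bars, PRM5 lies below, and the alpha-factor genes lie inside their bars.

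All 16 arrays carried transcripts of mating type a. Of 7 a-specific genes, 3 were above all other arrays, namely BAR1, AGA2 and STE2. BAR1, a protease that degrades alpha-factor, was 10.999 and 10.997 against 8.69, 9.59 and 10.16. The a-factor gene MFA1 was 12.51 and 12.76 against 10.86, 11.99 and 12.55, so WT replicate 1 overlapped the others. The log2 of the summed levels of the 7 genes was 14.66 and 14.83, against 13.60 to 14.63.

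The alpha-factor gene MF(ALPHA)1 was dim on every array, at 4.33 and 4.53 against 4.16 to 4.70. STE3, the receptor of alpha cells, was 5.78 on both against 5.13 to 7.06. SAG1, the alpha-agglutinin gene, was not dim, at 9.38 and 9.45 against 9.28, 9.45 and 10.30. The summed level of the 5 alpha-specific genes was 10.20 and 10.32, inside the 9.72 to 10.47 of the others. AFB1, an alpha-cell gene by its list, was nonetheless 8.595 and 8.83 against 5.35, 6.68 and 7.81. The mating-type switching endonuclease gene HO was 11.03 and 10.87 against 8.53, 10.18 and 10.65. Of 13 meiotic and haploid regulator genes 3 were below (5 without MA3 replicate 1 and MA7 replicate 2) and 1 above, and their summed level of 12.90 and 12.89 lay inside 12.68 to 13.07. The part of mating-type differences in the other results was not tested.

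LEU2, a marker of leucine synthesis that all genotypes list as mutant, was 13.95 and 13.96 against 13.54, 13.57 and 13.66. The difference of 1.29-fold was small and its gap exceeded the range of the others. YCL021W-A, the nearest measured gene before LEU2 on chromosome III, was 10.27 and 10.64 against 7.89 to 8.98, or 3.80-fold higher. NFS1, the next measured gene after LEU2, differed by 0.01. Of 14 leucine and branched-chain genes, 4 were above and 1 below (3 below without MA3 replicate 1 and MA7 replicate 2). Among those above was LEU9, an isopropylmalate synthase gene, at 12.16 and 12.23 against 11.29, 11.72 and 11.91. Of 18 uracil genes, 7 were above and 2 below. Of the 7 strain marker genes, 3 were below and 1 above, namely PRB1, PEP4 and PRC1 below and LEU2 above. FUR1, uracil phosphoribosyltransferase, was 12.90 and 12.84 against 11.92, 12.29 and 12.37. The next highest arrays were MA2 replicate 2 and MA8 replicate 1, both at 12.37 and also low in URA3. FUR1, URA1, URA4 and URA6 were among 53 genes of all 5449 that were above the other 12 arrays on all 4 arrays low in URA3. For FUR1, URA4 and URA6 the lowest of the 4 arrays was 12.371, 12.532 and 12.527. The highest of the 12 was close, at 12.360, 12.525 and 12.516. URA10 did not share this: it was 8.82 and 8.68 on the pair, below all others, and 9.63 and 9.73 on MA2 replicate 2 and MA8 replicate 1.

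CCT6, the tagged subunit, was 11.94 on both arrays. The other arrays low in URA3 were lower still, MA2 replicate 2 at 11.64 and MA8 replicate 1 at 11.46, and the remaining 12 lay between 12.46 and 12.94. Of 8 CCT subunit genes, 2 were above all other arrays, and 6 were above the remaining 12 without MA3 replicate 1 and MA7 replicate 2. The 4 genes that joined, CCT3, CCT5, CCT7 and CCT8, all lie on chromosome X. TCP1, the first subunit, was 12.85 and 12.83 against 12.41, 12.64 and 12.74. CCT2 was 13.16 and 13.19 against 10.47, 12.97 and 13.06, the lowest values belonging to MA6 replicate 1 and MA1 replicate 1. CCT5, the subunit that MA5 is said to alter, was 13.31 and 13.26 against 12.78, 13.14 and 13.73. It was exceeded by MA3 replicate 1 at 13.63 and MA7 replicate 2 at 13.73, and the other 12 arrays reached 13.16.

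The cofactor prefoldin, which passes actin and tubulin to CCT, was counted jointly with phosducin-like genes. Together they had 3 of 7 measured genes above and 0 below (5 above without MA3 replicate 1 and MA7 replicate 2). The prefoldin subunit gene PAC10 was 11.66 and 11.79 against 10.84 to 11.37. Of 23 actin and tubulin genes, 6 were above and 3 below, all by at most 1.18-fold. TUB4, gamma-tubulin, was 10.74 and 10.77 against 10.27, 10.53 and 10.68. Of 19 histone and S phase genes, 6 were above and 2 below, with the cyclin gene CLB5 at 9.74 and 9.73 against 9.22, 9.34 and 9.47. Of 33 proteasome genes 2 were above (6 without MA3 replicate 1 and MA7 replicate 2) and 3 below. Of 18 unfolded protein response genes 7 were above and 1 below, and of 6 flocculin genes 1 was above and 2 below.

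The 2 arrays differed from each other by at least 2-fold for 2 genes (0.0367%). FIT1, a cell wall mannoprotein that retains iron, read 10.55 on the WT array and 8.77 on the MA5 array, against 8.62, 11.06 and 11.54. RPL41A, a ribosomal protein gene with a near-identical copy, was 8.68 and 9.77 against 8.05, 8.37 and 8.88. The next genes by size, HEM3, ARE2, ADA2, PHO84, SPO75, YLR154C-H, YEL075C and YHR007C-A, differed by less than 2-fold. With 1 array a side there is no replicate check.

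The second arrays of the same labels were as alike as the first, with 0.119 between WT replicate 2 and MA5 replicate 2, and 2 genes (0.0367%) at least 2-fold apart. MA5 against WT by label, fitted with limma over all 16 arrays, called 0 of 5449 genes (0%) at an adjusted p under 0.05, and 18 (0.33%) had an unadjusted p under 0.05. The prefoldin gene GIM4 had one of the smallest p-values, at 10.75 ± 0.012 (SD, n = 2) for MA5 and 10.51 ± 0.060 for WT, a difference of 0.24 with a limma adjusted p of 1.00. The spread within labels was pooled over all 8 labels. WT and MA5 each hold 1 array of the pair and 1 array unlike it, so that spread includes the differences described above. The 2 arrays of each other label were also apart, from 0.142 for MA8 to 0.400 for MA1. A count of 0 does not show that the strains were alike.

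Other arrays also formed like pairs across labels. MA1 replicate 1 and MA6 replicate 1, at 0.123 from each other, lay below all other arrays for 676 genes (12.4%) and above for 975 (17.9%), but 18 of these were at least 2-fold lower and 131 at least 2-fold higher. MA2 replicate 2 and MA8 replicate 1, which shared the low URA3, lay below all others for 23 genes (0.422%) and above for 28 (0.514%). When all 4 arrays low in URA3 were set against the remaining 12, 28 of 5449 genes were below and 53 above, and 3 were lower by at least 2-fold. These were URA3, CCT6 and BOP2, named after its values were seen, at 18.5-fold, 2.03-fold and 2.87-fold. The stress and ribosome biogenesis shifts were not shared by all arrays low in URA3: the stress medians of MA2 replicate 2 and MA8 replicate 1 were -0.24 and -0.09, and their ribosome biogenesis medians were 0.05 and 0.07.

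Chromosome medians on the 2 arrays lay between -0.07 and 0.06 over 16 chromosomes. On VII, VIII, XII, XIV and XV both arrays were above all others by small amounts. On XIV the medians were 0.039 and 0.063 against -0.054 to 0.028. Chromosome X on MA3 replicate 1 and MA7 replicate 2 was at 0.63 and 0.68. Chromosome copy number was not tested. Control probe sets were not all alike. The bioB and bioC hybridization spikes had medians of 0.45 and 0.64 against -0.21 to 0.39, and 11 of 15 were above all other arrays. The poly-A spikes were 0.39 and -0.60 against -0.46 to 0.24, and ribosomal RNA probe sets were 0.13 and -1.64 against -0.93 to 0.85, so in both the 2 arrays lay apart from each other. The 3′ minus 5′ probe set difference of SPT15 was 1.37 and 1.21 against 1.47 to 1.71, and that of ACT1 was 0.44 and 0.42 against 0.38 to 0.48. For WBP1 it was 1.55 and 1.36 against 1.55 to 1.70, and for RIP1 0.25 and 0.31 against 0.27 to 0.49, so in each 1 array of the pair lay below all others. The part of these controls in the results was not tested.

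**Figure D5:**
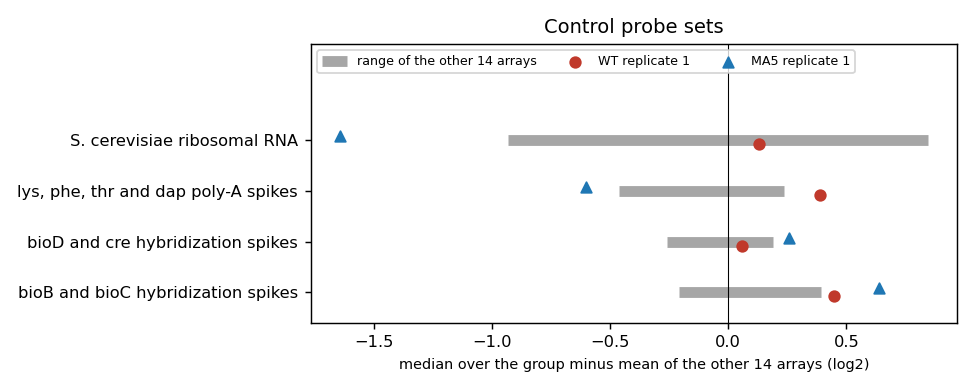
Median over each group of control probe sets of the level minus the mean of the other 14 arrays (log2), with WT replicate 1 as red circles, MA5 replicate 1 as blue triangles and the range of the other 14 as grey bars. Both arrays lie above the bar for the bioB and bioC spikes, and they lie on opposite sides for the poly-A spikes.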

How the data were processed

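The authors deposited log2 expression values per probe set from Affymetrix Yeast Genome 2.0 arrays. Per the submitters' processing notes, Partek and RMA were used; versions and build are not given in the sources used here. RMA normalizes between arrays, which hides any change common to all transcripts. Of 10928 probe sets, 5498 were paired with exactly 1 S. cerevisiae gene by the platform annotation, with 12 symbols updated through the R64 gene table. A gene with several probe sets (47 genes) was represented by the one with the highest mean. Groups came from the sample titles.

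A gene counted as below or above when both arrays lay beyond all of the other 14, with or without a 2-fold minimum. List medians used 35 gene lists. MA5 against WT was fitted in R 4.3.3 using limma 3.58.1 (two-sided moderated test, Benjamini-Hochberg, 1 mean per label, no replicate block). The procedure was also run on simulated data with independent noise on each array. Those data had no likeness of arrays across labels, so that run does not show how the test behaves here. Other steps used Python 3.11.15, numpy 2.4.6 and pandas 2.3.3. P-values measure the spread between these samples, which may be technical, and the number of arrays limits the precision. Same-numbered WT and MA5 arrays deviated together (r = 0.93) but those of the other labels did not (-0.34 to 0.06 with WT), so the numbers were not taken as pairs.

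The arrays, lists and named genes were chosen with earlier results of these data known. Named genes were the 5 markers, the strain marker and CCT genes, the 15 largest differences each way, the 4 largest in each list, the 10 largest between the 2 arrays, and up to 10 with the smallest p by label. Alternatives covered normalization, centring, dim genes, probe set choice, reference arrays, fold minimum and leaving out each array.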

Additional observations from a re-analysis of the deposited data

Results flagged for a closer look

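One probe set outside the genes analysed was high on both arrays. The probe set 1777669_at, which the annotation used here does not pair with a gene, read 8.40 and 8.50 on WT and MA5 replicate 1, a mean of 8.45. The other 14 arrays lay between 5.81 and 7.04, and the difference from their mean was 2.23 (log2), or 4.70-fold. It was picked out because it is a signal in data that the comparisons did not use.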

How the results depend on the processing

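Of 840 list medians recomputed, 20 changed sign, in 8 lists whose medians were at most 0.051 in size; of 3948 gene differences 8 did, for ARE2, STE3, MF(ALPHA)1, HEM3, SPO75, YEL075C and YHR007C-A. The 119 lower and 28 higher genes became 315 and 113 with a 1.5-fold minimum and 951 and 1282 with none, and lay between 111 and 130 and between 26 and 29 when each array was left out in turn. Genes at least 1.5-fold apart between the 2 arrays numbered 11. Restricted to genes with a mean of at least 7, list medians moved to -0.53 for strain markers and 0.90 for alpha-specific genes. The meiotic genes moved to -0.35. Quantile normalization gave 0.14 for meiotic genes and 0.12 for flocculins. Against WT replicate 2 and MA5 replicate 2 alone, the median was 0.26 for prefoldin and phosducin-like cofactors. In that comparison leucine genes were at -0.076 and actin and tubulin genes at -0.025. Leaving out arrays in turn, prefoldin and phosducin-like cofactors ranged from 0.15 to 0.26 and uracil genes from 0.061 to 0.132. MA5 against WT kept 0 genes called by limma with a replicate block over 16 arrays (30 at unadjusted p under 0.05), with the 4 arrays and the replicate block (404 at unadjusted p under 0.05, smallest adjusted p 0.237), and without each WT or MA5 array in turn (58 to 109). The causes were not tested.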

Other observations

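Among the 3470 unnamed probe sets, both arrays lay below all of the other 14 for 79 and above for 126. Of these, 8 were at least 2-fold lower and 1 was at least 2-fold higher. Among the 5449 genes, both arrays lay below for 17.5% and above for 23.5%. With the 2-fold minimum these were 2.18% and 0.514%. Each of these shares is larger than that among the unnamed probe sets. The annotation used here does not give the species of the unnamed probe sets, and the array also holds fission yeast probe sets. The 2 sets of shares are therefore not a like comparison, and the reason for the difference was not tested.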
